A study of Homo sapiens with 12 samples.

Results

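The genes described are 10 immediate-early and related regulatory genes: EGR1, EGR2, EGR3, NR4A1, NR4A2, NR4A3, NAB2, SRF, IER2 and IER3. They are 10 of the 61541 genes in the count table, each found by the Ensembl identifier of its symbol. The set was chosen by measured values: EGR1 was picked out for its loss in knockout cells grown alone and its partial return in knockout cells in co-culture. Those 2 contrasts are therefore given as a description, with no p-value for any of the 10 genes.

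RNA was sequenced from A549, an established human line of lung adenocarcinoma origin, at day 14 from transduction, in 12 libraries that form 4 groups of 3. Control cells carried the non-targeting guide gNTC1 and were grown alone (solo) or in co-culture. Knockout cells (TS-KO) carried a Cas9-mediated knockout of TYMS, which encodes thymidylate synthase, the enzyme that makes thymidylate for DNA synthesis, and were also grown alone or in co-culture. All cells were kept in high-glucose medium with fetal bovine serum, and the labels list no drug. Per the series text, knockout cells in co-culture grew beside parental A549 cells, which restored their growth. The partner of the co-cultured control cells, any separation of the partners before RNA was taken, and the origin of the replicates are not given in the labels. The labels and column headers name 1 guide per genotype, so an effect of the guide cannot be told apart from loss of TYMS, and p-values measure the spread between these libraries.

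Immediate-early genes are switched on within minutes of a growth signal, without new protein synthesis, and their messages decay quickly. Growth factors in serum act through RAS, MEK and ERK on ternary complex factors, which sit with serum response factor (SRF) on CArG boxes in the promoters of genes such as EGR1 and FOS. EGR1, EGR2 and EGR3 are zinc-finger transcription factors, NAB2 is a corepressor that binds them and is itself an EGR target, and NR4A1, NR4A2 and NR4A3 are orphan nuclear receptors induced by ERK and cyclic AMP signals. IER2 is a nuclear protein, and IER3 is a stress- and growth factor-induced regulator of survival and ERK signalling.

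Promoter sequences from RefSeq (GRCh38.p14) were found for 7 of the 10 members, all but EGR3, NR4A2 and IER3, with 11 start sites in all. They are shown because the CArG box is where SRF acts and the EGR site is where the EGR factors act. Capitals mark CArG boxes in EGR1 (chr5:138465229-138465478, plus strand), in EGR2 before the most downstream of its 3 RefSeq starts (chr10:62816367-62816616, minus strand) and in SRF (chr6:43171019-43171268, plus strand), each the 250 bases before a start. In NAB2 (chr12:57089042-57089071, plus strand) capitals mark the EGR site in a stretch of 30 bases.
EGR1: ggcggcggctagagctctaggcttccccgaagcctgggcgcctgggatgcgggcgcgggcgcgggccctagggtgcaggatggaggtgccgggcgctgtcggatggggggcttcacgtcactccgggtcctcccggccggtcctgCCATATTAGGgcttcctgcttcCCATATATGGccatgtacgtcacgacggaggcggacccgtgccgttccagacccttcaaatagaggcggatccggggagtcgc
EGR2: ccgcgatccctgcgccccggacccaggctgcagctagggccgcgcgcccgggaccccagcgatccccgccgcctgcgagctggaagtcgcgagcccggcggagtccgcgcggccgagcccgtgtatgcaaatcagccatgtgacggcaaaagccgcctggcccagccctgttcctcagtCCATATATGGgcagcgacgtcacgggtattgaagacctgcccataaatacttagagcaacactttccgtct
SRF: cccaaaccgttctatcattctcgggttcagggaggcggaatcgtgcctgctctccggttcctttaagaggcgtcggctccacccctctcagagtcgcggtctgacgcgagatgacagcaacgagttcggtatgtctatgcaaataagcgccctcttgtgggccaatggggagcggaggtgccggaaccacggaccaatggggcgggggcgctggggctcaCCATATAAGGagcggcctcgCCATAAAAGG
NAB2: tgtgcgtcctGCGGGGGCGgaggcgcggag

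Within these windows the CArG boxes of EGR1 begin 105 and 83 bases before its start. Those of SRF begin 30 and 10 bases before, and that of EGR2 71 bases before. Bases further upstream were not searched. Both strands were searched. A CArG box stood before a start of 3 of the 7 members, while 1.16% of 35116 RefSeq promoter windows of 250 bases hold one. Here and below, a member is counted if any of its windows holds a match. The background counts single windows, so the shares differ in unit. An EGR site, GCGNGGGCG, stood in EGR1, NAB2 and SRF, against 8.41% of all windows. The cyclic AMP response element TGACGTCA and the NR4A monomer site AAAGGTCA were in no member's window, against 1.65% and 1.05% of all windows. The first 5 letters of the former, TGACG, stood in windows of 5 of the 7 members (EGR1, EGR2, NR4A3, SRF and IER2), against 21.2% of all windows. These matches are descriptions of letters and were not tested as sites of binding.

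Library totals ranged from 14921371 to 35723762 counts, so that 1 count per 1e6 is 14.9 counts in the shallowest library before scaling. Levels are in CPM, counts per 1e6 counts with TMM scaling between libraries. TYMS, the targeted gene, stood at 95.3 ± 5.26 CPM in control cells alone, 93.4 ± 2.67 CPM in their co-culture, 20.8 ± 0.547 CPM in knockout cells alone and 11 ± 0.36 CPM in the co-culture of the latter (SD over 3 libraries). The control libraries went against the cell line of their label. CDKN2A, CDKN2B and MTAP are known to be deleted in A549, and CDKN2A stood at 54.6 to 116 CPM in the 6 control libraries but at 0 to 0.119 CPM in the 6 knockout libraries. MTAP stood at 43.7 to 79.4 CPM in the control and 0.302 to 0.647 CPM in the knockout, and CDKN2B at 1.61 to 2.89 CPM and 0 CPM. EPCAM, an epithelial marker, stood at 104 ± 13.6 CPM (SD, n = 3) in the solo control and 0.62 ± 0.264 CPM in the solo knockout. The other 13 of 14 epithelial and A549 markers were above 1 CPM in every group, but moved in both directions between the solo groups. From solo control to solo knockout, KRT19 fell from 1738 to 255 CPM and CDH1 from 55.8 to 17.5 CPM. KRT7 rose from 1908 to 5946 CPM and AKR1C3 from 229 to 1197 CPM. A difference in the cells' origin and the loss of TYMS therefore cannot be told apart in any comparison of knockout with control, and no such comparison can be made without the control libraries. The fold change of co-cultured against solo knockout compares knockout libraries alone, but its test shares the filter, scaling and spread with the control libraries. The leukocyte marker CD3E was at 0 in all libraries. The 5 leukocyte markers summed to 4.06 to 6.22 CPM and 1.84 to 4.15 CPM in solo and co-cultured control, and to 0.796 to 0.93 CPM and 2.83 to 4.41 CPM in solo and co-cultured knockout. CD14 made up most of each sum, and PTPRC stood at 0.0206 CPM or less as a group mean. The 7 fibroblast markers summed to 14.3 to 24.7 CPM in the control, 29.1 to 34.3 CPM in the solo knockout and 21.8 to 29.2 CPM in the co-cultured knockout, with DCN and COL1A2 at 0 in some groups. The 4 endothelial markers summed to 1.83 to 2.73 CPM in the control and 0.0846 to 0.634 CPM in the knockout. The part of other cells in the results was not tested.

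Within groups, libraries differed along a trend with transcript GC content. The Spearman correlation of deviations from the group mean with GC, across genes, was lowest at -0.838 and highest at 0.825, both in co-cultured knockout libraries (replicates 3 and 2). NAB2, IER2, SRF, NR4A1 and IER3 have GC-rich transcripts (62.6%, 61.7%, 60.9%, 59.8% and 58.5%). All of them had their highest solo control value in replicate 3 and their lowest co-cultured knockout value in replicate 3.

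EGR1 (ENSG00000120738; GRCh38 chromosome 5, 138465490 to 138469315, plus strand) was at 56, 68.9 and 65 CPM in the solo control libraries and at 63.1, 46.8 and 51.6 CPM in the co-cultured control. It was at 0.677, 0.796 and 1.09 CPM in the solo knockout, from 16, 16 and 18 counts, and at 24.6, 18.8 and 19.2 CPM in the co-cultured knockout. The solo knockout thus held 1.35% ± 0.34 (SD, n = 3) of the solo control level and the co-cultured knockout 32.9% ± 5.07 (SD, n = 3). The knockout groups overlapped neither each other nor either control group, while the control groups overlapped. As these are bulk samples, fewer cells making a message and less message per cell cannot be told apart. The log2 fold change was -6.23 (SE 0.23) for solo knockout against solo control and 4.62 (SE 0.22) for co-cultured against solo knockout, and these values picked the gene. Between the co-cultured groups EGR1 was lower in the knockout by a log2 fold change of -1.37 (SE 0.17), also a description.

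**Figure D1:**
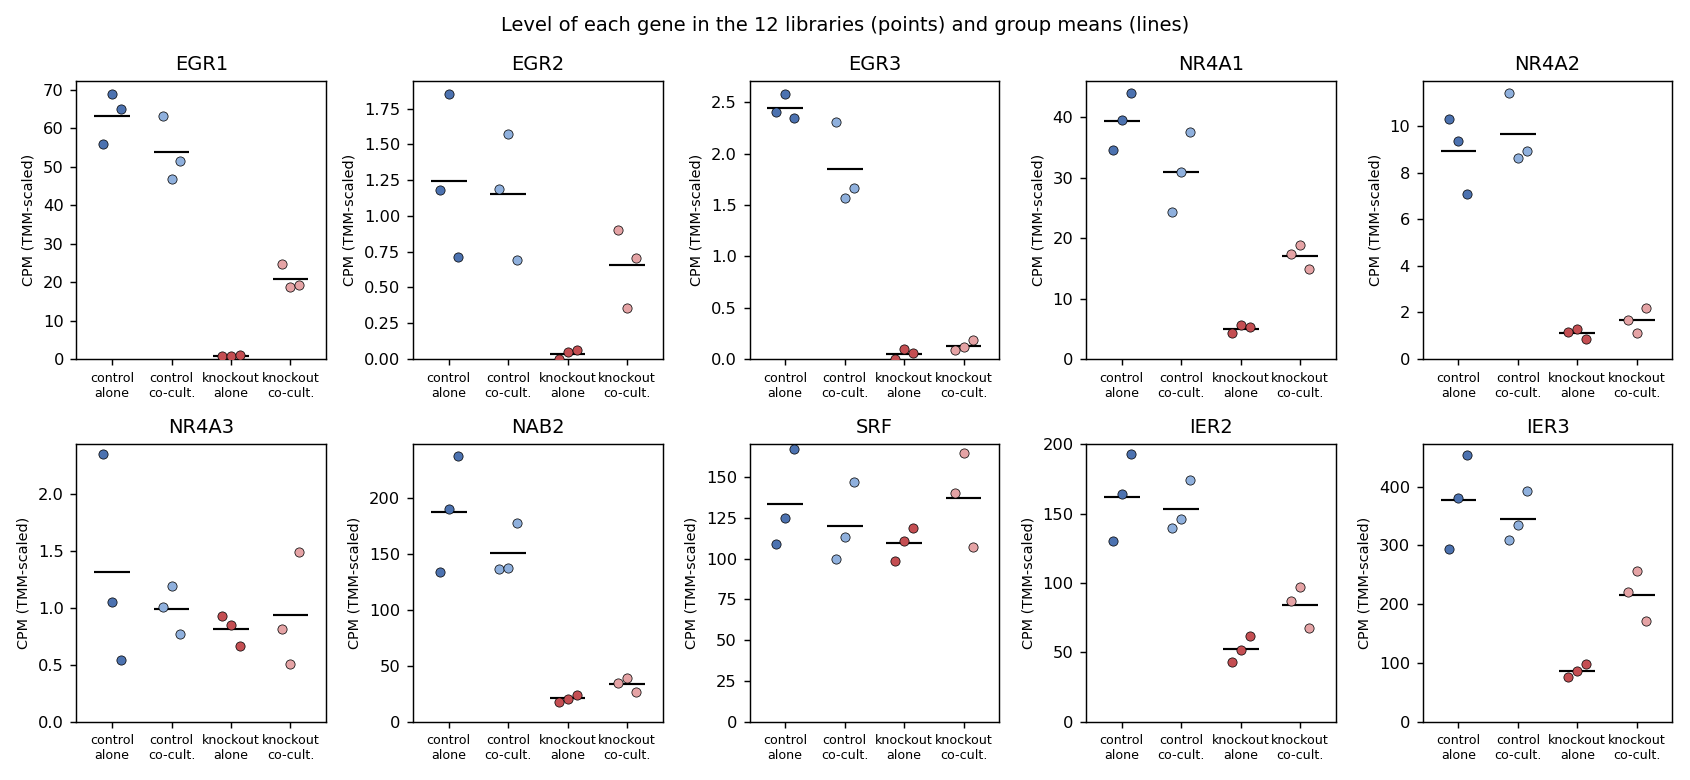
CPM (TMM-scaled, linear axis from 0) of each of the 10 genes in the 12 libraries, with 1 point per library and a line at each group mean. EGR1 stands at 0.677 to 1.09 CPM in the solo knockout and 18.8 to 24.6 CPM in the co-cultured knockout, while the SRF groups overlap.

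EGR2 (ENSG00000122877; chromosome 10, 62811996 to 62919900, minus strand), known for its part in myelination and lymphocyte tolerance, was a low message throughout. It was at 1.18, 1.85 and 0.71 CPM in the solo control, 1.19, 1.57 and 0.692 CPM in the co-cultured control, 0, 0.0497 and 0.0608 CPM in the solo knockout, and 0.905, 0.357 and 0.708 CPM in the co-cultured knockout. The solo knockout libraries held at most 1 count, below the floor of 3 counts per library. Against that floor, the solo control was at least 8.14-fold higher and the co-cultured knockout at least 4.3-fold higher. The co-cultured knockout overlapped both control groups, and its log2 fold change against the co-cultured control was -0.84 (SE 0.45, adjusted p = 0.146 by edgeR).

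EGR3 (ENSG00000179388; chromosome 8, 22687659 to 22693302, minus strand), a close relative of EGR1, was low in both knockout groups. It was at 2.41, 2.58 and 2.35 CPM in the solo control and 2.31, 1.57 and 1.67 CPM in the co-cultured control. It was at 0, 0.0995 and 0.0608 CPM in the solo knockout and 0.0861, 0.119 and 0.186 CPM in the co-cultured knockout, from at most 2 and at most 5 counts. The knockout groups overlapped each other and lay below both control groups. The solo control was at least 16-fold above the floor of the solo knockout. In co-culture the log2 fold change of knockout against control was -3.74 (SE 0.40). EGR2 and EGR3 passed the filter on low counts through the groups in which they were high. For that reason no p-value is given for EGR3 between the co-cultured groups. The p-value of EGR2 for those groups carries the same limit.

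NR4A1 (ENSG00000123358; chromosome 12, 52022832 to 52059507, plus strand), also called NUR77, was at 34.5, 39.5 and 44 CPM in the solo control and 24.3, 31 and 37.5 CPM in the co-cultured control. It was at 4.23, 5.62 and 5.23 CPM in the solo knockout and 17.4, 18.9 and 14.9 CPM in the co-cultured knockout. The co-cultured knockout lay above every solo knockout library and below every control library. Its log2 fold change against the solo knockout was 1.76 (SE 0.20). In co-culture NR4A1 was lower in the knockout than in the control, at -0.86 (SE 0.19, adjusted p = 0.00192 by edgeR).

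NR4A2 (ENSG00000153234; chromosome 2, 156324432 to 156342348, minus strand), also called NURR1 and needed for dopaminergic neurons, was at 10.3, 9.35 and 7.1 CPM in the solo control and 11.4, 8.64 and 8.92 CPM in the co-cultured control. It was at 1.18, 1.29 and 0.851 CPM in the solo knockout and 1.68, 1.13 and 2.2 CPM in the co-cultured knockout, which overlapped. The log2 fold change between the knockout groups was 0.57 (SE 0.30). Between the co-cultured groups it was -2.53 (SE 0.28, adjusted p = 9.02e-06 by edgeR), with no overlap.

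NR4A3 (ENSG00000119508; chromosome 9, 99821855 to 99866891, plus strand), also called NOR1, did not separate the groups. It ranged from 0.546 to 2.35 CPM in the solo control, 0.774 to 1.19 CPM in the co-cultured control, 0.669 to 0.93 CPM in the solo knockout and 0.506 to 1.49 CPM in the co-cultured knockout. Its counts ran from 10 to 40 per library. The log2 fold change between the co-cultured groups was -0.09 (SE 0.48, adjusted p = 0.893 by edgeR), and it was positive without replicate 2 of the co-cultured control (0.07) or of the co-cultured knockout (0.21).

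NAB2 (ENSG00000166886; chromosome 12, 57088894 to 57095476, plus strand), the corepressor of the EGR factors, was at 134, 191 and 238 CPM in the solo control and 137, 138 and 178 CPM in the co-cultured control. It was at 17.6, 20.7 and 24.3 CPM in the solo knockout and 34.3, 39.3 and 26.9 CPM in the co-cultured knockout. The knockout groups did not overlap, but the co-cultured knockout reached 17.8% ± 3.31 (SD, n = 3) of the solo control mean. Its log2 fold change was 0.68 (SE 0.22) between the knockout groups. Between the co-cultured groups it was -2.17 (SE 0.22, adjusted p = 4.7e-06 by edgeR).

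IER2 (ENSG00000160888; chromosome 19, 13150415 to 13154908, plus strand) was at 130, 164 and 193 CPM in the solo control and 140, 146 and 174 CPM in the co-cultured control. It was at 43.1, 52 and 61.9 CPM in the solo knockout and 87.4, 96.9 and 67.4 CPM in the co-cultured knockout. The knockout groups overlapped neither each other nor the controls. The log2 fold change between the knockout groups was 0.68 (SE 0.19), and between the co-cultured groups -0.87 (SE 0.19, adjusted p = 0.00205 by edgeR).

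IER3 (ENSG00000137331; chromosome 6, 30743199 to 30744554, minus strand) was at 294, 381 and 454 CPM in the solo control and 309, 335 and 393 CPM in the co-cultured control. It was at 76.8, 86 and 98.4 CPM in the solo knockout and 221, 257 and 171 CPM in the co-cultured knockout. The co-cultured knockout again lay between the solo knockout and the controls without overlap. Its log2 fold change against the solo knockout was 1.31 (SE 0.19), and against the co-cultured control -0.68 (SE 0.19, adjusted p = 0.0103 by edgeR). The latter call was lost when only these groups entered the fit (log2 fold change -0.62, adjusted p = 0.0552 by edgeR; range over 19 alternatives 0.000111 to 0.0552).

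SRF (ENSG00000112658; chromosome 6, 43171299 to 43181507, plus strand) was at 109, 125 and 167 CPM in the solo control and 100, 113 and 147 CPM in the co-cultured control. It was at 98.4, 111 and 119 CPM in the solo knockout and 140, 165 and 107 CPM in the co-cultured knockout. All groups overlapped. The log2 fold change between the co-cultured groups was 0.19 (SE 0.20, adjusted p = 0.461 by edgeR). The SRF value changed with GC offsets, to 0.56 between the co-cultured groups (adjusted p = 1.62e-05 by edgeR, range over 19 alternatives 1.62e-05 to 0.994). Between the solo groups it was 0.52, where it had been -0.29 (SE 0.20). The offsets follow GC content against the mean of all 12 libraries, so they can also remove GC-related differences between groups. Whether the trend within groups moved SRF was not tested.

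Exons of NR4A1 overlap NR4A1AS, those of NAB2 overlap STAT6, those of IER3 overlap IER3-AS1, and those of EGR3 and IER2 overlap unnamed genes. The strand setting of the counting is not given in the sources used here, so reads of these pairs cannot be told apart.

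Per comparison, 8 of the 10 genes were called lower in solo knockout than in solo control at an adjusted p under 0.05, the exceptions being NR4A3 and SRF. Of all 16768 genes tested, 56.6% were called there, 28.6% lower and 28.0% higher. Between the knockout groups 5 of 10 were called higher in co-culture, namely EGR1, EGR2, NR4A1, IER2 and IER3. Of all genes, 11.4% were called there, 5.97% higher and 5.40% lower. The rule that chose the genes used both contrasts, so nothing is read from these counts. Scaling by library size alone shifted the all-gene median by 0.157 on the log2 scale in the first contrast and by -0.12 in the interaction. The count of 5 was 3 without replicate 1 of the solo knockout and 3 of 8 members tested when only the knockout groups entered the fit. In that fit EGR2 and EGR3 failed the filter on low counts, and IER2 lost its call. NAB2, not called in the main fit, was called higher by DESeq2, by library size only, with no filter and with GC offsets. It was also called in some fits that left out 1 library.

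As levels, the co-cultured knockout held 32.9% of the solo control mean for EGR1, 52.8% for EGR2, 43.4% for NR4A1, 51.7% for IER2 and 57.4% for IER3. For EGR3, NR4A2 and NAB2 it held 5.33%, 18.7% and 17.8%. On the log2 scale the co-culture difference in knockout cells amounted to 74.2% of the loss for EGR1, 59.4% for NR4A1, 62.1% for IER3 and 41.7% for IER2, and to 19.1% and 21.6% for NR4A2 and NAB2. No such share is given for EGR2 and EGR3, whose solo knockout counts were at the floor. Whether these shares differ between genes was not tested.

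**Figure D2:**
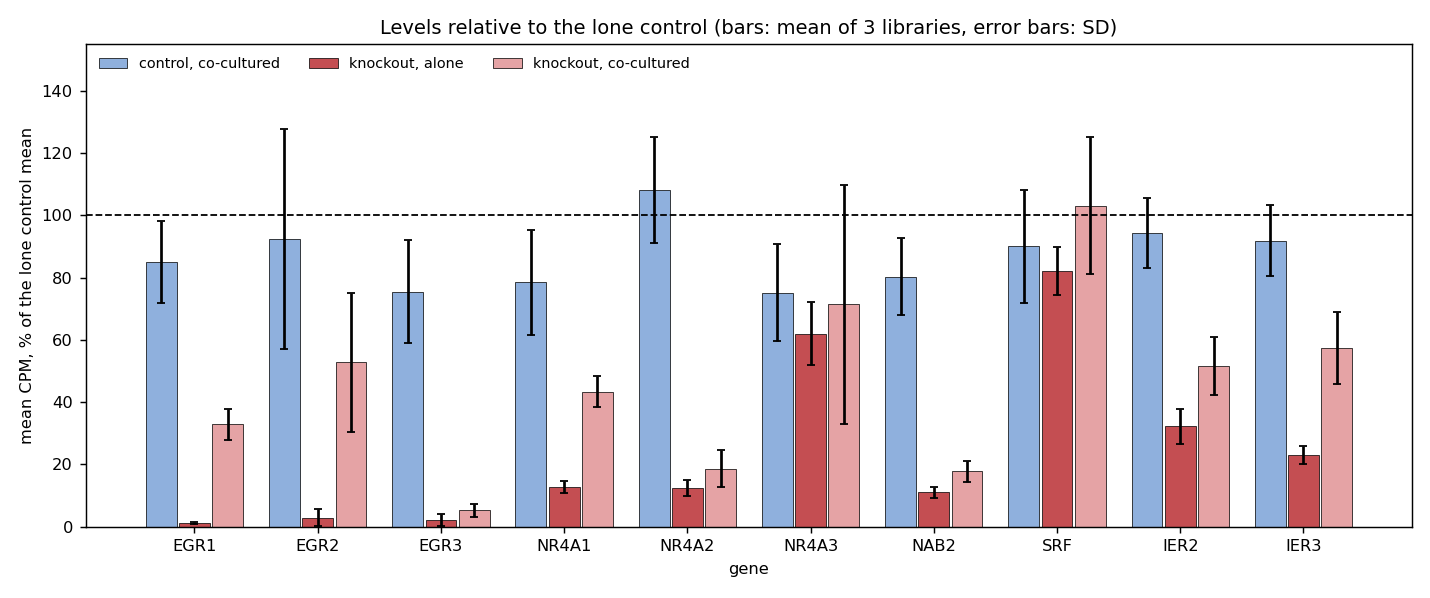
Mean CPM of each gene in 3 groups as a percentage of its solo control mean (dashed line at 100%), with SD over 3 libraries as error bars. EGR1 stands at 1.35% in the solo and 32.9% in the co-cultured knockout, and NAB2 at 11.1% and 17.8%.

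In co-culture, the comparison that asked whether the knockout still differed from the control, 7 of the 10 genes were called lower in the knockout and none higher. Of all genes tested, 49.4% were called there, 25.3% lower and 24.1% higher. EGR2, NR4A3 and SRF were not called, and their groups overlapped. Among the 7, the co-cultured level of EGR1 had been used by the rule, and EGR3 had passed the filter through the control groups. The other calls were those of NR4A1, NR4A2, NAB2, IER2 and IER3. This comparison shares the co-cultured knockout libraries with the contrast between the knockout groups.

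In control cells, co-culture was compared with growth alone. The choice of genes did not name this contrast, but the solo control was also the reference of the loss that picked EGR1. A choice for a high solo control would lower this contrast too, so its EGR1 value is a description. None of the 10 genes was called by edgeR, where 0% of all genes were, and 0 members had an unadjusted p under 0.05. DESeq2 called 0 members and 0 genes, and 540 of all genes had an unadjusted edgeR p under 0.05. The member log2 fold changes had absolute values of at most 0.42, with SE from 0.17 to 0.49. Of the 10, 9 were negative, and the share of all genes with a negative value was not counted. EGR1 was at -0.24 (SE 0.17), NR4A1 at -0.35 (SE 0.18, adjusted p = 1 by edgeR) and EGR3 at -0.42 (SE 0.30, adjusted p = 1 by edgeR). EGR3 was the only member whose control groups did not overlap. The share of all genes without overlap was not counted, so nothing is read from this.

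The difference between the co-culture effects, in knockout minus in control cells, contains the contrast that chose the genes and is given as values. It was 4.86 (SE 0.28) on the log2 scale for EGR1, 4.15 (SE 0.96) for EGR2, 2.11 (SE 0.27) for NR4A1 and 1.44 (SE 0.27) for IER3. Those 4 were called, where 1.80% of all genes were, 1.51% higher and 0.286% lower. The count was 2 when 1 of 6 libraries was left out, namely replicate 2 of the solo control, replicate 1 or 2 of the co-cultured control, replicate 1 or 2 of the solo knockout and replicate 1 of the co-cultured knockout. EGR2 lost its call in 11 of 18 alternatives and IER3 in 6 of 18, while EGR1 and NR4A1 kept theirs in all 18. The alternatives reuse the libraries that chose the genes, so nothing is read from these calls or from how often they were kept. The difference was 1.71 (SE 0.77) for EGR3, 1 (SE 0.30) for NAB2, 0.77 (SE 0.27) for IER2, 0.57 (SE 0.70) for NR4A3, 0.48 (SE 0.29) for SRF and 0.46 (SE 0.40) for NR4A2.

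**Figure D3:**
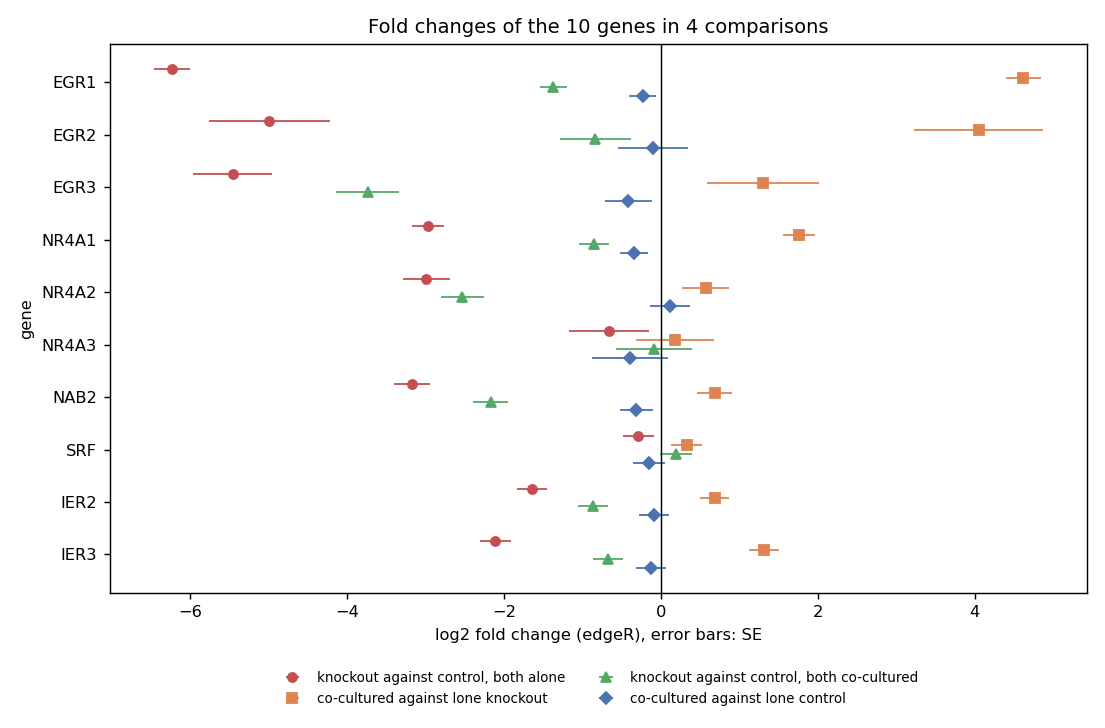
Log2 fold change (edgeR, with SE) of each gene in 4 comparisons, where the key writes lone for solo. Those of EGR2 and EGR3 against the solo knockout depend on the prior count, as that group is at the floor. In co-culture, knockout against control runs from -3.74 for EGR3 to 0.19 for SRF, and for co-cultured against solo control no gene exceeds 0.42 in absolute value.

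Per length of exon (CPM per kilobase), EGR1 led the EGR members in the solo control, with a level of 20.2 ± 2.11 against 0.504 ± 0.0251 for EGR3 and 0.337 ± 0.155 for EGR2 (SD, n = 3 each). The libraries of EGR3 and EGR2 overlapped there. In the co-cultured knockout the order of the levels was EGR1 at 6.64 ± 1.02, EGR2 at 0.178 ± 0.0751 and EGR3 at 0.0269 ± 0.0105 per kilobase (SD, n = 3 each), with EGR2 above EGR3 in every library. EGR4, the remaining gene of the family and not one of the 10, stood at 0.222 ± 0.0605 per kilobase in the solo control, from 6 to 12 counts. It was at 0.0188 ± 0.0179 per kilobase in the solo knockout, from 0 to 2 counts. In the co-cultured knockout it was at 0.494 ± 0.13 per kilobase, from 22 to 46 counts (SD, n = 3 each). In the NR4A family the solo control levels were 5.39 ± 0.645 for NR4A1, 2.25 ± 0.412 for NR4A2 and 0.208 ± 0.148 for NR4A3 per kilobase (SD, n = 3 each). In the co-cultured knockout they were 2.34 ± 0.27, 0.421 ± 0.135 and 0.149 ± 0.0797 (SD, n = 3 each), in the same order. IER3 had the highest level per kilobase of all 10 genes in every group, from 64.2 ± 7.98 in the solo knockout to 278 ± 59 in the solo control (SD, n = 3 each).

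Across the 12 libraries, the Pearson correlation of log2 CPM with EGR1 was 0.974 for NR4A1, 0.968 for IER3, 0.955 for EGR2, 0.911 for IER2, 0.854 for NAB2, 0.828 for EGR3, 0.821 for NR4A2, 0.354 for SRF and 0.223 for NR4A3. The libraries fall into 4 groups, so these values mostly repeat the group means. Of 11156 other genes compared, FOS had the pattern most like that of EGR1, at 0.988, with 7.41, 6.31, 0.718 and 3.45 CPM in the 4 groups, listed as control alone, control in co-culture, knockout alone and knockout in co-culture. NR1D1 followed at 0.986, with 63, 57.3, 10.9 and 45.7 CPM in the same order. MAGEA6, at 0.981, belongs to a family of near-identical genes, so its counts are uncertain. MAFA, OASL and GPR3 stood at 0.973 each.

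The wider pathway was described with 7 gene lists. Among 25 other immediate-early genes, 13 passed the test upward and 1 downward in co-cultured against solo knockout, with a median of 0.70 on the log2 scale, against 5.97% and 5.40% of all genes and a median of 0.0122. FOS, the partner of JUN in AP-1, was at 2.24 (SE 0.23) on the log2 scale, FOSB at 2.46 (SE 0.24) and ARC, a synaptic regulator, at 3.29 (SE 0.28), while JUNB was at -0.09 (SE 0.25) and was not called. Between the co-cultured groups 14 of the 25 were called higher in knockout cells and 4 lower, with a median of 0.68, against 24.1% and 25.3% of all genes and a median of -0.0209. CCN1 rose from 22.8 to 182 CPM (by 3 on the log2 scale, SE 0.13, adjusted p = 2e-09 by edgeR) and CCN2 from 12.1 to 81.6 CPM (2.74, SE 0.14, adjusted p = 1.08e-08 by edgeR); both encode matricellular proteins. IER5L fell from 318 to 81.5 CPM and TRIB1, a pseudokinase, from 81.4 to 23.9 CPM. FOS was lower there (-0.87) and FOSB higher (0.87), both called.

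The ternary complex and myocardin-related coactivators of SRF numbered 6. In the co-cultured groups 2 were called higher in the knockout, ELK3 (15.3 to 31.3 CPM, adjusted p = 0.0227 by edgeR) and MYOCD, and none lower, with a median of 0.01, so that 33.3% of the list was called against 49.4% of all genes. MRTFB alone was called between the knockout groups, lower in co-culture at -1.58 on the log2 scale, and the median of the list was -0.41. Of 17 cytoskeletal genes that MRTF and SRF drive, 13 were called higher and 1 lower in knockout against control in co-culture, with a median of 0.86, where 24.1% and 25.3% of all genes were. TAGLN, an actin-binding protein of smooth muscle, rose from 9.36 to 303 CPM (by 5.02 on the log2 scale, SE 0.25, adjusted p = 7.8e-09 by edgeR) and ACTA2, smooth muscle actin, from 3.78 to 33 CPM (3.12, SE 0.17, adjusted p = 1.73e-08 by edgeR), while CNN2 fell from 533 to 327 CPM. Between the knockout groups none of the 17 was called higher and 1, VCL, was called lower, or 5.88% of the list against 11.4% of all genes. In the co-cultured knockout EGR1 thus lay below the control, while the 13 cytoskeletal genes lay above it.

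Of 16 genes listed as EGR1 targets, 15 were tested. In knockout against control in co-culture 7 were called higher and 4 lower, with a median of 0.43, against 24.1% and 25.3% of all genes. PTGES, a prostaglandin E synthase, rose from 159 to 824 CPM and PLAU, urokinase, from 108 to 483 CPM. F3, tissue factor, fell from 6.08 to 2.68 CPM. In co-cultured against solo knockout 6 were called higher and 2 lower, with a median of 0.49, against 5.97% and 5.40% of all genes, and ICAM1 had the highest value, 3.09.

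Of 18 genes of MAPK and CREB signalling, 2 were called higher and 6 lower in knockout against control in co-culture, with a median of -0.19. The 44.4% called stood near the 49.4% of all genes. EGFR, a receptor tyrosine kinase upstream of RAS, rose from 40.3 to 105 CPM and MAP2K1, which encodes MEK1, from 107 to 184 CPM. MAPK3, which encodes ERK1, fell from 107 to 48.7 CPM and NRAS from 29.7 to 16.2 CPM. EGFR was at 271 CPM in the solo knockout, so that its level and that of EGR1 lay in opposite order in the knockout groups. In the knockout, co-culture went with 1 gene called higher, MAP2K1, and 2 lower, EGFR among them, with a median of -0.32, or 16.7% of the list against 11.4% of all genes.

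Feedback regulators of MAPK signalling numbered 11. In the co-cultured groups the knockout had 5 called higher and 3 lower, with a median of -0.07, against 24.1% and 25.3% of all genes. DUSP6, the ERK phosphatase, was at 70.1, 65.1, 5.32 and 14.9 CPM in the 4 groups, listed as control alone, control in co-culture, knockout alone and knockout in co-culture, and fell between the co-cultured groups (log2 fold change -2.13, SE 0.17, adjusted p = 3.85e-07 by edgeR). SPRY4 also fell, from 41.7 to 14 CPM, while DUSP1 rose from 62.5 to 389 CPM and SPRED3 from 4.69 to 13.7 CPM. In co-cultured against solo knockout 3 were called higher, DUSP5, DUSP6 and DUSP10, and none lower, or 27.3% of the list against 11.4% of all genes. Of 7 partners of the NR4A receptors 6 were tested, and 2 were called higher and 2 lower in the co-cultured groups, with a median of -0.18, or 66.7% of those tested against 49.4% of all genes. NCOR1, a nuclear receptor corepressor, rose from 25 to 46.2 CPM. KDM1A, a histone demethylase, fell from 254 to 87.1 CPM and RXRB, a retinoid X receptor, from 105 to 51.2 CPM. The knockout groups differed in 2 of these genes, NCOR1 and RCOR1, both called lower, or 33.3% of those tested against 11.4% of all genes. In the co-cultured control against the solo control 0 genes of the 7 lists were called by edgeR, where 0% of all genes were, so nothing is read from it.

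**Figure D4:**
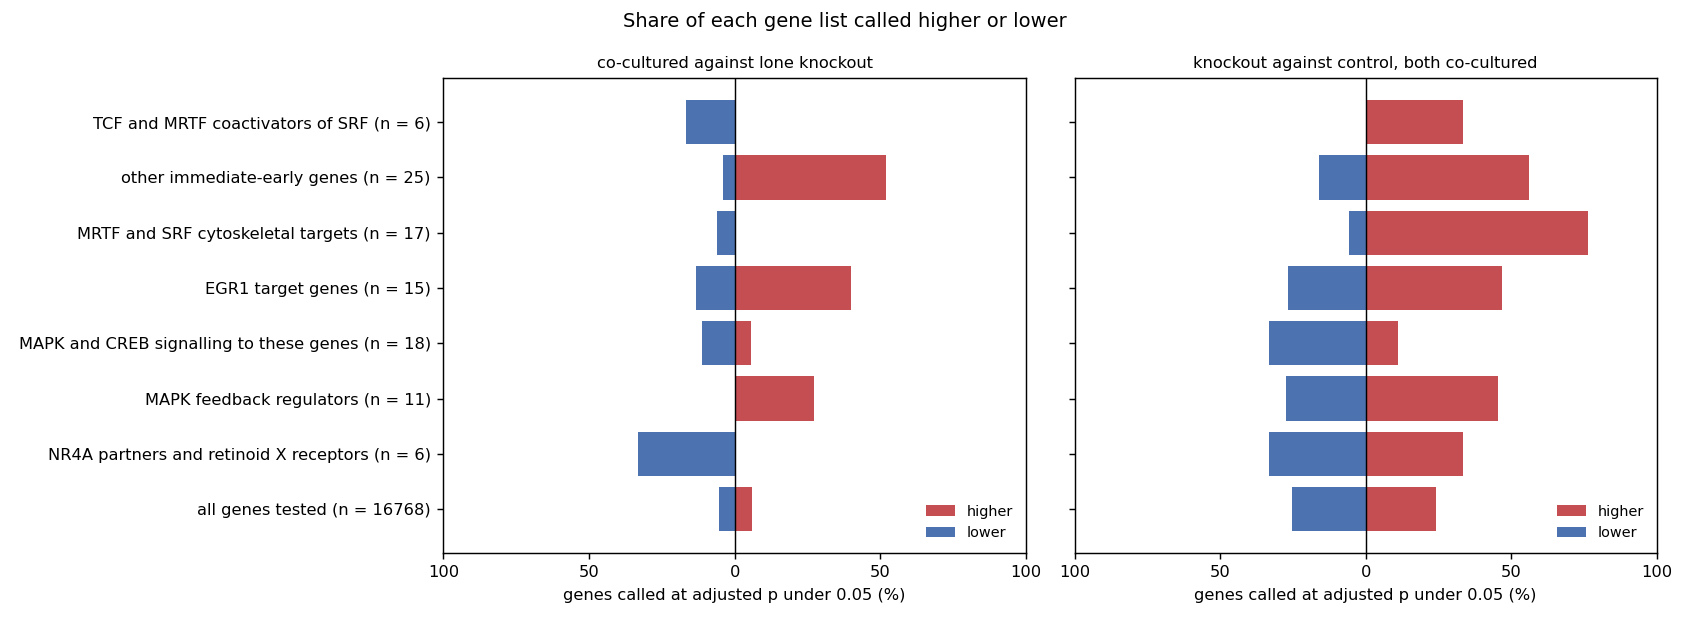
Share of the tested genes of each list called higher (red, to the right) or lower (blue, to the left) at adjusted p under 0.05, with all 16768 genes tested at the bottom. Of 25 other immediate-early genes 13 were called higher in the co-cultured than in the solo knockout, where 5.97% of all genes were.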

How the data were processed

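The authors deposited raw counts, whole numbers per Ensembl gene, in 1 column per library. The submitters' processing notes name FastQC, STAR 2.7.9a, featureCounts, R 4.2.1, DESeq2 1.36.0 and GRCh38 (hg38), with no role or order. Annotation and strand setting are not given in the sources used here. Positions, exon lengths and GC content come from GENCODE 29, which holds 58366 of the identifiers.

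Counts were tested in R 4.3.3 with edgeR 4.0.16: filterByExpr on the 4 groups, which left 16768 genes with all 10 members, TMM scaling, 4 group means fitted over 12 libraries, and the robust quasi-likelihood F-test. P-values were adjusted by Benjamini-Hochberg over all genes tested in each of 5 comparisons, and genes under 0.05 were called. SE is the fold change over the root of F. Group values are mean ± SD of TMM-scaled CPM. A group with at most 3 counts in every library is at the floor, and the fold is a bound; floors cover counting error only. The fit was tested on simulated data. Replicates differed by a chi-square of 8.77 to 130 per gene, so no column was a copy of another. This cannot show whether replicates came from separate cultures.

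The members and lists were chosen with earlier results of these data known. Named genes are the members, TYMS, of each list the 2 highest and 2 lowest called fold changes between the co-cultured groups with at least 5 CPM, and the 6 genes most correlated with EGR1 (log2 CPM, prior count 2); other genes named were chosen after their values were seen. A few genes that this rule names are not reported here. Alternatives were DESeq2 1.42.0, library size only, no filter, only the groups compared, GC offsets, a replicate block, and leaving out each library.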

Additional observations from a re-analysis of the deposited data

Results flagged for a closer look

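The co-culture difference in knockout cells exceeded that in control cells for 4 genes picked up by the interaction term of the edgeR model. On the log2 scale the excess was 4.86 for EGR1, 4.15 for EGR2, 2.11 for NR4A1 and 1.44 for IER3. The choice of the genes had used the knockout side of this difference, so the values are a description and support no test. The EGR2 value rests on at most 1 count in each solo knockout library, and EGR2 passed the filter on low counts through its other groups.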

How the results depend on the processing

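Of 1032 log2 fold changes of members and TYMS under alternatives, 963 kept their direction and side of the threshold, 28 lost the call, 18 gained it and 23 changed sign. Of these 23, 0 had been called in the main analysis. SRF in solo knockout against solo control was called with its new sign under GC offsets, with or without the replicate block. Members called stayed at 8 to 9 in solo knockout against solo control, at 6 to 8 in the co-cultured pair and at 0 in the control. Between the knockout groups the count of 5 was 3 with only the groups compared, and ran from 3 to 6 without 1 library, with IER2 the call most often lost. The interaction count of 4 ran from 2 to 6 without 1 library. All genes called between the knockout groups numbered 1907 in the main analysis, 3347 by DESeq2, 3340 with no filter, 4894 with GC offsets, 664 with only the groups compared and 536 to 5681 without 1 library. For the interaction these were 301, 877, 1342 and 1471 in the same order, and 117 to 3623 without 1 library. The fit of only the groups compared cannot give the interaction.

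Signs changed as follows, on the log2 scale; the cause was not tested. SRF in solo knockout against solo control was 0.52 with GC offsets and 0.53 with the replicate block added. In the control, SRF was 0.03, IER2 0.13 and IER3 0.01 with GC offsets, with or without the block, and TYMS was 0.03 by library size only. Without 1 library, NR4A3 ran from -1.07 to 0.05 in solo knockout against solo control, -0.34 to 0.49 between the knockout groups, -0.60 to 0.21 in the co-cultured pair, -0.78 to 0.33 in the control and -0.15 to 0.95 in the interaction. In the control, the ranges without 1 library were -0.42 to 0.29 for EGR2, -0.03 to 0.23 for NR4A2, -0.33 to 0.04 for SRF, -0.22 to 0.06 for IER2, -0.27 to 0.03 for IER3 and -0.07 to 0.01 for TYMS.

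The labels number replicates 1 to 3 in each group, and nothing says that a number marks a shared origin. Deviations of same-numbered libraries correlated at 0.491, -0.0242 and 0.378 for the solo groups and at 0.189, -0.0514 and 0.412 for the control groups. They correlated at -0.247, 0.079 and -0.54 for the knockout groups and at -0.17, -0.215 and -0.523 for the co-cultured groups. The GC correlation of replicate 1 was -0.741 in the solo control, -0.594 in the co-cultured control and -0.674 in the solo knockout, but 0.482 in the co-cultured knockout. Whether a number marks a shared factor in some groups was not tested. With the replicate block, members called were 8 in the solo pair, 5 between the knockout groups, 7 in the co-cultured pair, 0 in the control and 3 in the interaction, and all genes called between the knockout groups numbered 1080.

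Depth limits EGR2, EGR3 and NR4A3, which had at most 43 counts in any library.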
